A study of Rattus norvegicus with 26 samples.

Results

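The late step of smooth muscle cell (SMC) differentiation, from d4 to d6, was examined in Cl19, a line of rat multipotent adult progenitor cells (rMAPC) that is 1 clone. Its members were 6 of the 26 arrays of the series, 3 of d4 and 3 of d6, and each d6 array was paired with the d4 array of the same replicate number, which lay on the same slide. The cells came from the bone marrow of female Fischer rats aged 3 weeks, and both days had been cultured in basal rMAPC medium with TGFβ1 and PDGF-BB, so that the 2 groups differed in the day alone. Time in culture and time under the factors cannot be told apart, nor can the day and the place of an array on its slide. The 3 Cl19 arrays of d0, the undifferentiated cells, served to tell genes that moved late from genes that had moved before, and the line 3c3, which had the same days, and primary rat SMCs (2 arrays) are mentioned where they bear on these genes.

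TGFβ1 and PDGF-BB drive progenitor cells towards SMCs, which carry contractile filament proteins such as transgelin and calponin and lay down collagen-rich matrix. rMAPC that express Oct4 also share genes with the primitive and visceral endoderm, the early lineage that takes up and exports lipid and protein for the embryo through receptors such as cubilin and carriers such as the apolipoproteins. Keratins are filament proteins of epithelial cells, and laminins are chains of the basement membrane that many cell types make. The genes below are ordered by these roles.

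Each array gave 1 brightness value a probe, stated here as normalized log2 signal (the scanner's processed signal after quantile normalization over the 26 arrays), so that a difference of 1 stands for a doubling. On the 6 arrays, 54.1% to 61.4% of the features were well above background. Levels of different probes were not set against each other. The labels were checked against defining genes. Oct4 (Pou5f1) had 10.31, 10.31 and 10.22 on d0 but cleared the background on a single array of d4 and a single array of d6. Transgelin (Tagln), calponin (Cnn1) and the light chain Myl9 were well above background on all 6 arrays.

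Compared with d4, 403 of 22527 tested probes were higher on d6 (1.79%) and 315 were lower (1.4%), at an adjusted p below 0.05 in limma with the slide as a block. The size of the step was modest for most genes: the median absolute change was 0.24, against 0.61 for the step from d0 to d4, which shares its d4 arrays with the late step and had 23.2% of the tested probes higher and 30.9% lower. All 403 and all 315 moved the same way in all 3 pairs, and the 3 arrays of d4 and the 3 of d6 did not overlap for 394 and 302 of them, where 19.8% of all tested probes did not overlap. Of all 11450 tested genes, 2355 were higher in all 3 pairs and 2442 were lower in all 3. The median level on d4 was 4.59 for the rises, 7.18 for the falls and 6.92 over all tested probes. Since d4 enters the called change and a rise could pass the filter through d6 alone, this order partly follows from the selection. Nothing is read from it. Counted by gene, with the brightest probe for each, 236 of 11450 genes were higher (2.06%) and 189 lower (1.65%), the shares to set beside counts of list members below. These calls stood close to the threshold: the smallest adjusted p was 0.0151, and limma made 0 calls from the 6 arrays alone, where 3809 probes had an unadjusted p below 0.05 against 5323 in the 9 arrays with d0. Without replicate 1 limma made 0 calls (2659 probes at an unadjusted p below 0.05), without replicate 2 it called 3 probes higher and 1 lower, and without replicate 3 it called 104 higher and 77 lower. All 718 called probes kept their sign in each of these fits, which had to follow since all 3 pairs of each had moved the same way.

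**Figure D1:**
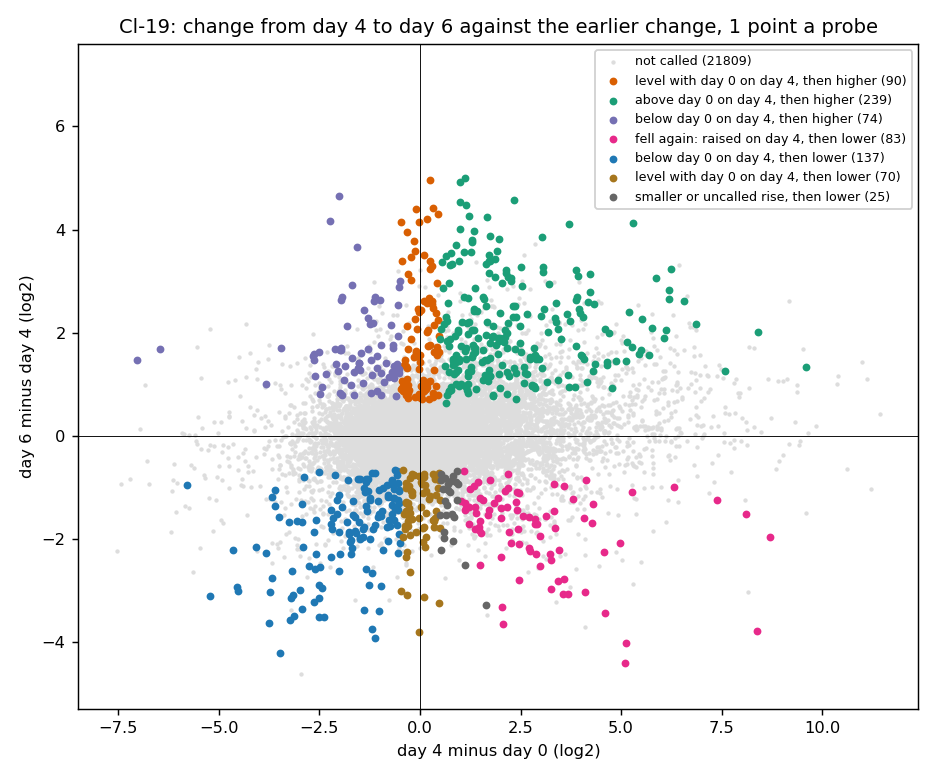
Each point is 1 of the 22527 tested probes, with the change from d0 to d4 on the x axis and the change from d4 to d6 on the y axis, both as log2 differences of 3 arrays a day in Cl19, and colours mark the called probes by their earlier course. The 403 higher probes lie above 0 and the 315 lower probes below 0 on the y axis, among uncalled probes of like size, and since d4 arrays enter both axes with opposite sign no relation is read from the plot.

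The largest rises included keratins, matrix genes and secreted signals. Krt6c, a keratin of stressed and stratified epithelium, stood at 5.23, 6.58 and 7.04 on the d4 arrays and at 10.12, 11.83 and 10.51 on the d6 arrays. The rise was 4.54 ± 0.47 (SE, n = 3 pairs, 23.2-fold, adjusted p = 0.0219). Each SE of the late step is taken from limma over the 9 arrays with d0, so it is not the spread of the 3 pairs alone. Tgfbi, a matrix protein named for its induction by TGFβ, went from 5.81, 7.28 and 8.11 to 10.64, 12.39 and 10.54, a rise of 4.12 ± 0.63 (17.4-fold, adjusted p = 0.0354). For both genes each d6 array lay above every d4 array. Calb2, the calcium-binding protein calretinin, had 4.47, 5.90 and 5.55 on d4 and 8.19, 8.55 and 11.48 on d6, where replicate 3 stood highest. Lama3, a laminin chain of epithelial basement membranes, rose from 2.74, 3.93 and 5.22 to 7.51, 8.79 and 7.15 (14.5-fold, adjusted p = 0.0454). Mmp13, a collagen-cleaving protease, rose from 3.07, 2.14 and 3.49 to 5.23, 7.83 and 7.06 (14-fold, adjusted p = 0.0358). The days did not overlap for any of these 3 genes, although the d6 array of replicate 1 was the lowest of its day for Calb2 and Mmp13.

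The other genes among the 12 with the largest rise were Cxcl1 (3.88 ± 0.44), Fxyd5 (3.69 ± 0.61), a regulator of the sodium pump and of cell adhesion, Jag1 (3.27 ± 0.33), a Notch ligand, Qrfp (3.24 ± 0.44), a neuropeptide, Ankrd22 (3.22 ± 0.49), Sirpa (3.17 ± 0.57), a receptor for CD47, and Notum (3.16 ± 0.60), a secreted enzyme that inactivates Wnt ligands. Of these 12, 5 were bright enough to be tested in 3c3: Krt6c (2.13), Cxcl1 (2.76), Lama3 (3.05) and Fxyd5 (2.94) rose there too, with adjusted p in limma of at most 0.00671, and Mmp13 had -2.22 (adjusted p = 0.0609).

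**Figure D2:**
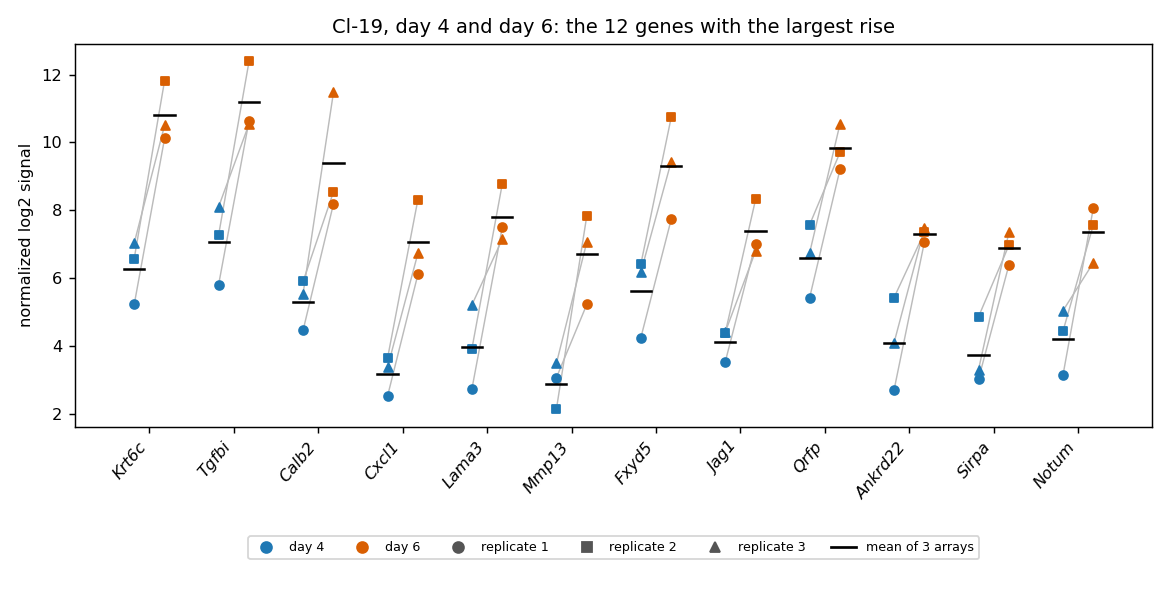
Normalized log2 signal of the 12 genes with the largest rise on the 3 arrays of d4 (blue) and the 3 arrays of d6 (orange) of Cl19, with lines joining the pairs of 1 slide and black bars for the means. Every line slopes upward, and the pair with the lowest d4 level is replicate 1 for most genes, such as Krt6c at 5.23 and Fxyd5 at 4.24.

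Some genes came into view on d6 alone, with no d4 array and all 3 d6 arrays well above background. For these the fold is a lower bound, set against the dimmest signal still well above background. Adamtsl2, a secreted protein of the fibrillin microfibril, had 0.56, 1.70 and 1.49 on d4 and 4.18, 8.23 and 6.10 on d6, a rise of at least 17.9-fold (adjusted p = 0.0325). Lect2, a secreted hepatokine, had 0.60, 1.46 and 0.59 on d4 and 5.59, 6.97 and 4.99 on d6, a rise of at least 14.4-fold (adjusted p = 0.0151). Calcb, a form of calcitonin gene-related peptide, was at least 8.24-fold higher and Scrg1 at least 5.95-fold. Col5a2, a fibrillar collagen chain, had 0.30, 0.27 and 0.81 on d4 and 3.14, 6.31 and 4.55 on d6, a rise of at least 6.34-fold (adjusted p = 0.0344). It was bright in primary SMCs, with a mean of 13.89, as was Tnc (tenascin C, 9.70), which rose in Cl19 by 3.98 ± 0.77 from 1.04, 3.02 and 1.01 to 3.43, 6.58 and 6.98. In all, 34 of the 403 higher probes were well above background on no d4 array.

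Cxcl2, a neutrophil-attracting chemokine, was near background on d4. It stood at 0.45, 2.53 and 1.62 on d4, well above background on 1 of the 3 arrays, and at 4.77, 8.09 and 6.74 on d6, a rise of 5.0 ± 0.56 in measured log2 signal (adjusted p = 0.0249), with no fold given since the d4 level was not above background on all arrays. Its neighbour Cxcl1 went from 2.52, 3.64 and 3.37 to 6.11, 8.32 and 6.73 (14.7-fold, adjusted p = 0.0253), and the cytokine Tnf from 1.14, 3.77 and 2.73 to 4.63, 5.95 and 5.95 (adjusted p = 0.0344). None of the 3 overlapped between the days, and in each the replicate 1 arrays were the lowest of their day. Of the 12 tested chemokines, cytokines and receptors 3 rose, 0 fell and the median change was 1.21, against -0.01 over all tested genes, of which 2.06% rose. Members that did not pass the test included Cxcr4 at 1.72 ± 0.65 and Il33 at -1.25 ± 0.44. Of the 26 members on the array, 14 were well above background on no d4 array and 11 on no d6 array. A member could pass the filter through d6 alone, as Cxcl2 and Tnf did. The rises and the median therefore partly follow from the selection, which applies to the other lists too. In 3c3 the 7 tested members had a median of -0.28, with 2 higher and 2 lower.

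Against 2.06% of all tested genes that rose, the TGFβ list held 4 genes that rose among 21 tested and 0 that fell, with a median change of 0.31. Besides Tgfbi these were Pmepa1 (1.25 ± 0.20), a feedback inhibitor of TGFβ signalling, Tgif1 (1.15 ± 0.19), a co-repressor of SMADs, and the ligand Tgfb1 itself (0.93 ± 0.15). Tgfb1 had 8.62, 8.96 and 9.11 on d4 and 9.67, 9.99 and 9.82 on d6, so that the days did not overlap. Ccn2, another target of TGFβ, had -0.09 ± 0.18 and did not pass the test. Of 18 matrix proteases and inhibitors Mmp13 alone passed, while 14 of the 18 were above 0 and the median was 0.64. Over all tested genes 5635 of 11450 were above 0. Of 22 collagens and collagen-processing enzymes Col5a2 and Col4a5 (1.02 ± 0.17) rose.

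Of 24 laminins and integrins Lama3 and Itgb3 (2.38 ± 0.41), a receptor subunit for fibronectin and vitronectin, rose. Lama1, the laminin chain of early embryonic basement membranes, fell. The shares over all tested genes were 2.06% higher and 1.65% lower. Lama1 had 15.73, 15.22 and 15.29 on d0, 12.68, 10.56 and 11.78 on d4 and 7.80, 8.50 and 9.59 on d6, a fall of 3.04 on the log2 scale (SE 0.56, adjusted p = 0.0472). Lamb3, a partner chain of Lama3, had a change of 1.84 ± 0.36 that missed the threshold (adjusted p = 0.0504). Fbln1, a matrix protein of basement membranes and elastic fibres, fell from 11.54, 10.62 and 10.88 to 8.39, 8.09 and 9.68 (adjusted p = 0.0399), on both of its tested probes.

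The epithelial list had 29 tested members, of which Krt14 and Krt7 rose and 0 fell, with a median of 0.16. Krt7, a simple-epithelial keratin, had climbed from 4.52, 4.63 and 5.12 on d0 to 13.67, 14.77 and 14.62 on d4 and stood at 15.45, 16.01 and 15.59 on d6, a further 1.33 ± 0.23 (adjusted p = 0.0454). Among receptors and ligands of the Wnt pathway, Wnt5b (3.06 ± 0.56) and Fzd1 (1.90 ± 0.15) rose and Rspo3, which amplifies Wnt signals, fell by 3.38 (SE 0.64), 3 of 23 tested. Wnt5b was called on 1 of its 2 tested probes. Fzd1 had tight values, 6.97, 7.68 and 7.41 on d4 and 9.13, 9.29 and 9.32 on d6. In the Notch list 2 of 12 tested members rose, the ligand Jag1 and the receptor Notch4 (2.02 ± 0.38), and 0 fell. Over all tested genes 2.06% rose and 1.65% fell.

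Short stretches before the annotated start are shown for some of the named rising genes whose 250 upstream bases held the letters TGANTCA, read on both strands, a form of the site that AP-1 factors bind, and for Cxcl1, which held an NF-kappa-B form, capitalized in its stretch. The motifs were chosen after the values were seen, and a match is a description, not a site in use. The stretches are 30 bases each, 5′ to 3′ on the gene's strand from RefSeq on GRCr8, with the motif in capitals.
Mmp13 (chr8:12782752-12782781): accccaagtggTGACTCAtcactattgctc
Lama3 (chr18:3952664-3952693): tccgtgtaggcTGACTCAtgtgtgaagttt
Lama3 (chr18:3952720-3952749): ccttctttcccTGAGTCAggcaggcccggg
Sprr1a (chr2:180752724-180752753): gggaaggagagTGAGTCAtaggtgactggt
Ankrd22 (chr1:241083702-241083731): cagagcatttgTGACTCAgaaaccggttcc
Cxcl1 (chr14:17479386-17479415): cctgtgctccGGGAATTTCCctggcctgga
The motif began 66 bases before the start in Mmp13 and 84 bases before it in Cxcl1, and Lama3 held 3 matches to TGANTCA within its 250 bases. TGANTCA was found in 5.98% of the 184 genes higher on d6 that had a promoter in the table, in 4.7% of the 149 lower genes and in 4.31% of all 9298 tested genes, so its share in the rising genes was near that of all genes. The NF-kappa-B form was found in 2 of the 184 higher genes, 0 of the 149 lower genes and 0.409% of all tested genes. Among the falling genes named below, Egflam also held TGANTCA. The letters AGATAA, bound by factors of the Gata4 family and held by Cubn, were in 7.38% of the lower and 5.71% of all tested genes, and CAAAGTCCA, an HNF4 form, in 0 of the higher and 0 of the lower genes.

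The 12 largest falls among genes bright on all 6 arrays included Cubn, Amn and Apoa4 of the visceral endoderm list, the scaffold Nherf4 and the ligands Ihh and Nrg1. Cubn, the receptor cubilin that takes up vitamin B12 and proteins, had 13.57, 13.37 and 13.44 on d0, 13.25, 11.52 and 12.06 on d4 and 7.90, 8.09 and 9.61 on d6, a fall of 3.74 on the log2 scale (SE 0.52; 13.4-fold, adjusted p = 0.0322). Amn, the membrane anchor that cubilin needs, went from 15.30, 13.99 and 14.14 to 11.25, 10.43 and 12.49 (8.48-fold lower, adjusted p = 0.0384). For both genes the lowest d4 array stayed above the highest d6 array. Nherf4, a scaffold of the same brush border membranes, fell from 12.97, 11.62 and 11.81 to 8.31, 6.78 and 9.54 (15.2-fold, adjusted p = 0.0325). Ihh, the hedgehog ligand of visceral endoderm and gut, went from 12.62, 12.71 and 12.60 on d0 over 10.90, 8.46 and 8.90 on d4 to 5.90, 5.89 and 5.72 on d6, a 12-fold fall in the late step that was called on all 4 of its tested probes (adjusted p = 0.0322 for the brightest). Of the 8 tested hedgehog genes it was the only one that passed the test, where 1.65% of all tested genes fell.

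The other genes among the 12 largest falls were Rasl11a (a fall of 3.52, SE 0.34), a small GTPase, Nrg1 (3.52, SE 0.61), a ligand of ErbB receptors, Tdh (3.25, SE 0.54), the threonine dehydrogenase of early embryonic cells, and Egflam (3.22, SE 0.52), with Apoa4, Misp3, Akap5 and Fga, which had risen before d4 and are described below. Of the 12, Cubn, Amn, Nherf4, Ihh, Rasl11a, Nrg1 and Egflam also fell in 3c3, by 1.07 (Nherf4) to 2.47 (Rasl11a). There Tdh had -0.13, Misp3 -0.03, Akap5 -0.07 and Apoa4 -0.73, none of which passed the test, and Fga rose by 1.43 (adjusted p in limma = 0.0148).

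**Figure D3:**
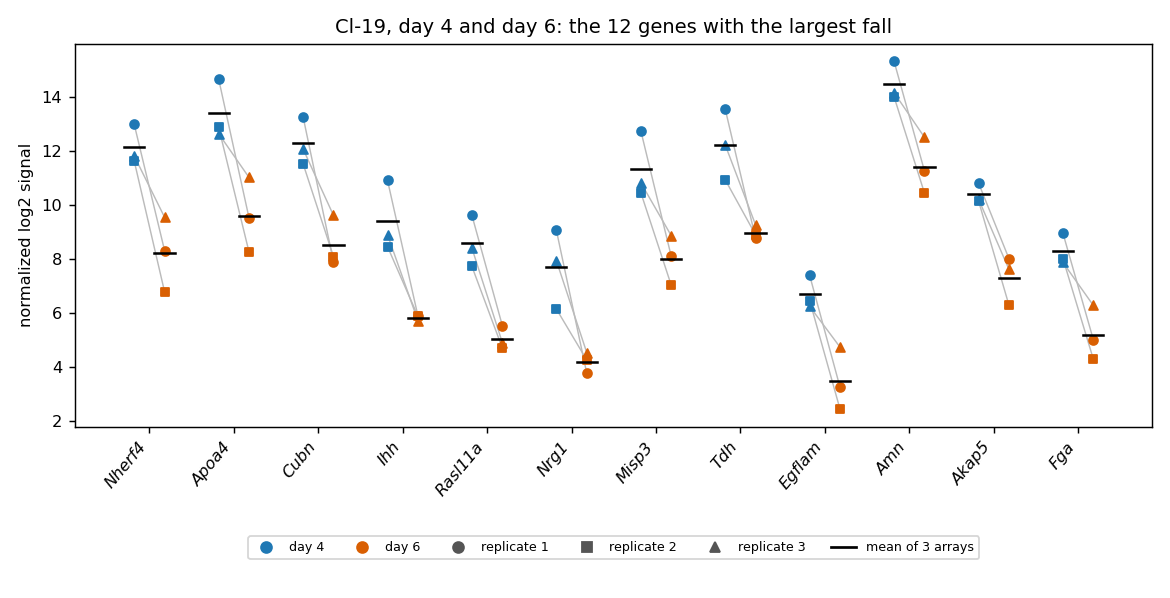
Normalized log2 signal of the 12 genes with the largest fall on the 3 arrays of d4 (blue) and the 3 arrays of d6 (orange) of Cl19, with lines joining the pairs of 1 slide and black bars for the means. Every line slopes downward, replicate 1 is the brightest d4 array for each gene (Cubn 13.25, Apoa4 14.65), and the d6 arrays of replicate 3 are the brightest of their day for most genes (Cubn 9.61, Apoa4 11.01).

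In the list of visceral endoderm genes and lipid carriers 5 of 17 tested members fell, Cubn, Apoa4, Amn, Apoa2 and Rbp4, and 0 rose, with a median of -1.25 over the 17. Over all tested genes 1.65% fell. The pairs differed: the median was -2.54 in pair 1, -1.45 in pair 2 and -0.08 in pair 3. Not all members had lower values. Apob had 1.1 ± 0.34 (adjusted p = 0.123), and Afp had 9.34, 9.75 and 10.49 on d4 and 9.39, 9.26 and 11.54 on d6, a change of 0.20 ± 0.62, with overlapping days. Ttr had 11.27, 12.40 and 10.87 on d4 and 9.72, 8.95 and 12.11 on d6, so that replicate 3 moved against the other two. In 3c3 the same 17 genes had a median of 0.35, with 7 higher and 3 lower, where 1279 of 9871 tested genes were higher and 1105 lower. Afp rose in 3c3 by 3.86 and Ttr by 3.04, while Cubn, Amn and Mttp fell. Beside this list, of 7 tested hepatocyte markers Fga and Fgb fell; the summed level of all 14 on the array (log2 of the summed signal) ranged from 11.2 to 12.5 on d4 and from 9.36 to 12.2 on d6, and its part in the result was not tested.

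Of 14 tested transcription factors and markers of pluripotency and primitive endoderm, 2 fell and 0 rose, with a median of -0.32, where 1.65% of all tested genes fell. Gata4 stood at 13.69, 13.53 and 13.61 on d0, 13.65, 12.09 and 12.80 on d4 and 11.26, 10.60 and 11.42 on d6, a fall of 1.76 (SE 0.28, adjusted p = 0.0374). Tbx3 fell by 2.30 (SE 0.35) from 11.36, 9.91 and 9.91 to 7.88, 8.36 and 8.04. Among the others, Sox2 had 1.85 ± 0.63 (adjusted p = 0.147), and Sox17 (-1.40 ± 0.38, adjusted p = 0.093), Sox7 (-1.10 ± 0.33) and Gata6 (-0.44 ± 0.33) missed the threshold, and Foxa2 had -0.15 ± 0.19. Myc, which drives growth and cell division, fell from 12.32, 10.49 and 11.36 to 9.83, 8.91 and 10.03 (adjusted p = 0.0454), below its d0 values of 10.90, 10.80 and 10.99. Fgfr4 fell by 2.95 (SE 0.43) and Fgfr3 by 1.02 (SE 0.17), while Etv4, a transcription factor downstream of FGF receptors, rose by 1.46 ± 0.21; these were the 3 that passed of 16 tested FGF genes.

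Genes raised on d4 and lowered again on d6 formed a group of 83 probes with 58 gene symbols. Members were called lower on d6 and had been called higher on d4 than on d0 by at least 1 log2 unit. Since d4 arrays enter both steps, a d4 array that lay high by chance would place a gene here. The d2 arrays enter neither step. Without replicate 1 of d2, whose array stood apart, d2 was at least 1 above d0 for 65 of the 83. That difference uses the same d0 arrays as the rise on d4, and no share over all tested probes is given, so it does not test the grouping. The median of the 83 probes was 2.45 above d0 on d4 and 0.67 above d0 on d6. On d6, 30 of the 83 were within 0.5 of d0, 34 were still at least 1 above it and 3 were at least 0.5 below it.

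Apoa4, a carrier of intestinal lipoproteins, had the largest fall in this group among genes bright on all 6 arrays. It had 4.76, 5.17 and 5.08 on d0, 14.65, 12.86 and 12.63 on d4 and 9.51, 8.25 and 11.01 on d6, a fall of 3.79 (SE 0.72; 13.8-fold, adjusted p = 0.0475). Apoc3 went from 3.76, 4.03 and 4.12 over 7.83, 6.78 and 7.05 to 5.02, 4.32 and 5.12 (adjusted p = 0.0268). Apoa2, a protein of high-density lipoprotein, had 6.82, 7.01 and 7.46 on d0. It went from 9.64, 7.01 and 9.09 on d4 to 6.32, 5.21 and 6.69 on d6, with these days apart by a narrow margin. Replicate 2 did not rise from d0 to d4, and d2 without replicate 1 was only 0.04 above d0. Fga, the fibrinogen alpha chain, rose from 4.30, 4.80 and 5.07 on d0 to 8.95, 8.01 and 7.87 on d4 and was at 5.02, 4.30 and 6.28 on d6. The potassium channel subunit Kcnj5 returned to its starting level, with 4.20, 4.08 and 3.58 on d0, 7.01, 5.82 and 6.45 on d4 and 3.95, 3.25 and 3.66 on d6 (6.99-fold lower in the late step, adjusted p = 0.0191). Slc1a6, a glutamate transporter, Akap5, an anchor for protein kinase A, and Misp3 had falls of 2.79, 3.08 and 3.33.

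Claudin-2 (Cldn2), which forms cation pores in leaky epithelia, was measurable on d2 (mean 6.05 without replicate 1) and on d4, but not on d0 or d6. It was at 0.40, 0.37 and 0.77 on d0, at 6.72, 5.14 and 4.94 on d4 and at 1.06, 0.45 and 2.04 on d6, where no array was well above background; its level was thus at least 11.9-fold lower in the late step (adjusted p = 0.0254). It was the only one of 26 tested tight junction genes that passed the test, where 1.65% of all tested genes fell. Tbx18, a factor of the epicardium and of vascular mural cells, was at 0.67, 0.21 and 0.22 on d0, at 5.10, 4.30 and 4.02 on d4 and not well above background on d6, at least 5.82-fold lower (adjusted p = 0.0191), on both of its probes; on d2 its mean without replicate 1 was 0.47, and in primary SMCs it had a mean of 10.21. Of the other genes that went out of view, Fut9, which on d4 was level with d0, was at least 6.08-fold lower, Sema5a at least 4.52-fold, and Adra2c at least 3.38-fold although it missed the threshold (adjusted p = 0.132). Sema5a was called on 2 of its 4 tested probes. In all, 27 of the 315 lower probes were well above background on no d6 array.

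Smarcd3 (Baf60c), the BAF chromatin remodelling subunit of heart and muscle on which the study centred, belonged to the same group. It had 5.64, 5.86 and 6.04 on d0, 13.52, 12.84 and 13.34 on d4 and 12.26, 11.48 and 12.19 on d6, a fall of 1.25 (SE 0.21; 2.38-fold, adjusted p = 0.0416). The lowest d4 array lay above the highest d6 array, and on d6 the gene was still far above every d0 array. In 3c3 the same probe had 0.17 (adjusted p = 0.563), and in primary SMCs a mean of 14.63. Among the 18 tested BAF subunits 3 others passed, all upwards and by less than 1 unit: Dpf1 (0.93 ± 0.17), Smarce1 (0.83 ± 0.15) and Smarcc2 (0.82 ± 0.13). The shares over all tested genes were 2.06% higher and 1.65% lower. Cited1, a co-activator that the mesoderm list held, likewise fell by 1.57 (SE 0.26) from 14.16, 13.80 and 13.45, after 10.32, 10.80 and 10.89 on d0. The atrial myosin light chain Myl7 fell by 1.53 (SE 0.22), to 9.28, 8.94 and 10.11, while Actc1 had -0.12 ± 0.37 and Tnnt2 0.12 ± 0.42.

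The late genes were 90 probes with 52 symbols that were called higher on d6 and lay within 0.5 of d0 on d4. Their median rise was 1.61 and ranged from 0.70 to 4.97, and 16 of them were well above background on no d4 array. On d2, without replicate 1, 56 of the 90 were within 0.5 of d0. The d0 arrays enter this count and the selection on d4, and no share over all tested probes is given, so it is a description only. The largest rise among late genes bright on all 6 arrays was that of Krt14, the keratin of basal keratinocytes, with 4.22, 4.09 and 4.50 on d0, 3.78, 3.73 and 4.41 on d4 and 6.09, 8.22 and 7.01 on d6 (3.13 ± 0.45, adjusted p = 0.0336). Its partner Krt5 had 2.54 ± 0.51 (adjusted p = 0.0534). Sprr1a, a protein of the cornified envelope, moved from 3.15, 2.67 and 3.26 to 4.53, 5.18 and 4.68, after 2.61, 2.95 and 2.75 on d0, and the envelope protein Evpl, named after its values were seen, rose by 1.43 ± 0.26. Pthlh, the parathyroid hormone-like hormone that keratinocytes secrete, had 3.23, 3.31 and 2.23 on d0, 2.86, 2.99 and 1.5 on d4 and 5.06, 8.34 and 6.35 on d6 (4.14 ± 0.63, adjusted p = 0.0354). Pthlh was also named after its values were seen. Not every d4 array was well above background for it, so the size of its rise is not exact. The other named late genes were A3galt2 (2.57 ± 0.39), S100a16 (2.23 ± 0.35), Dtx1 (2.01 ± 0.28), which regulates Notch, and Tram1l1 (1.73 ± 0.31). Of these, A3galt2 and S100a16 had dipped on d2 before they returned to the d0 level. In 3c3 A3galt2 rose by 3.11 (adjusted p in limma = 0.0114). There Krt14 had 0.40, Sprr1a -0.10, S100a16 0.92 and Dtx1 0.03, none of which passed the test.

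**Figure D4:**
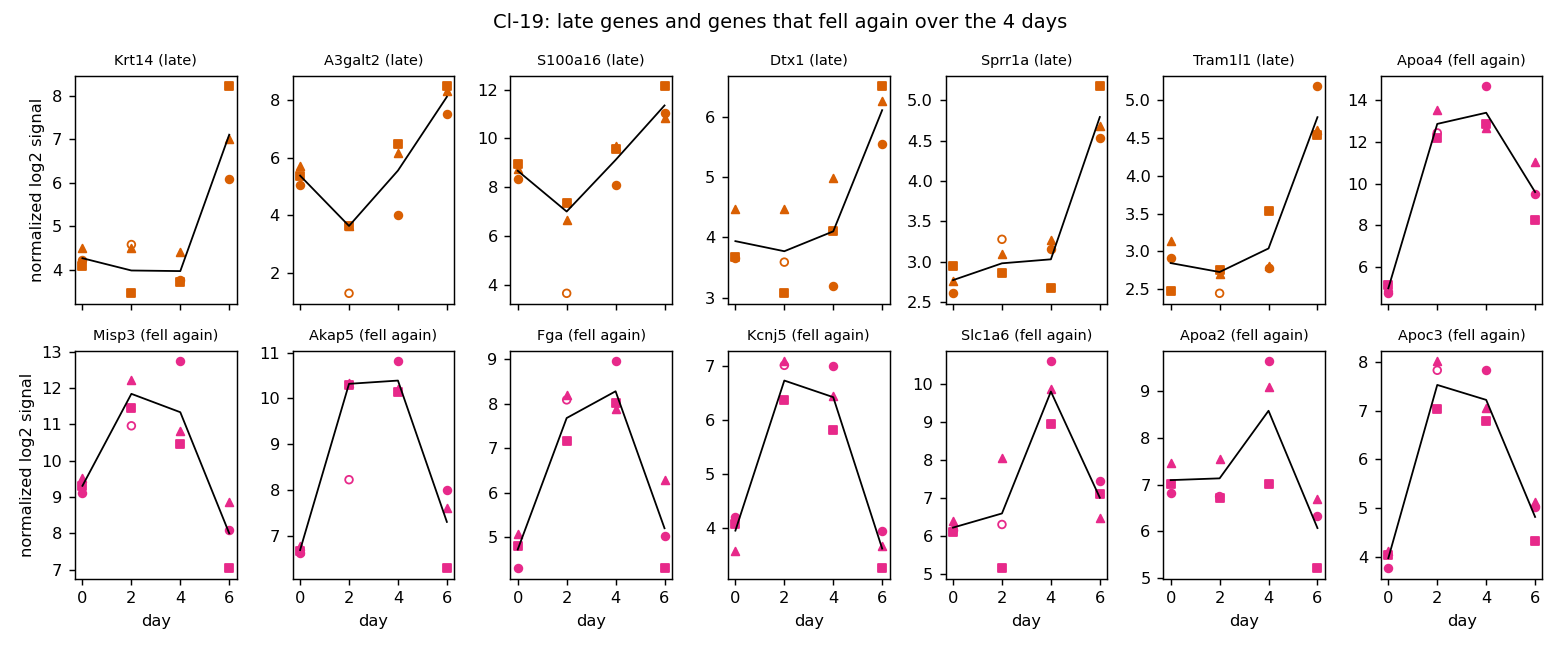
Normalized log2 signal of the 6 named late genes (orange) and the 8 genes that fell again with the largest fall (pink) on d0, d2, d4 and d6 of Cl19, with symbols for replicates 1 (circle), 2 (square) and 3 (triangle) and a line through the means, which leaves out the open d2 symbol of replicate 1. Krt14 stays between 3.46 and 4.58 up to d4 and reaches 6.09 to 8.22 on d6, while Apoa4 stands above 12 on d2 and d4 and drops to between 8.25 and 11.01; each panel has its own y axis.

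Of the 403 rising probes, 239 had a d4 mean at least 0.5 above d0, whether or not that earlier difference passed the test, with medians of 1.95 for the earlier step and 1.90 for the late one. Besides Krt7 and Tgfbi, those called higher in both steps included Wnt5b, at 2.80, 2.42 and 3.38 on d0, 7.72, 8.63 and 9.86 on d4 and 11.74, 12.52 and 11.13 on d6, and the mesendoderm factor Mixl1, which rose by 1.72 ± 0.31 from 6.70, 7.37 and 7.82 on d4. Another 74 rose on d6 after having been at least 0.5 below d0. Cpt1a, the gatekeeper of fatty acid oxidation in mitochondria, had close replicates, with 6.29, 6.40 and 6.49 on d0, 4.54, 4.41 and 4.32 on d4 and 6.10, 6.26 and 6.00 on d6 (1.69 ± 0.14, adjusted p = 0.0176). Of the falling probes, 137 of 315 had a d4 mean at least 0.5 below d0, with medians of -1.52 for the earlier step and -1.68 for the late one; Lama1, Ihh, Nrg1 and Fgfr4 were among them.

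In Cl19 the contractile genes of SMCs were already up on d4, and most did not pass the test again. Of 20 tested members 19 did not pass, and the median change was 0.04, where 2.06% of all tested genes rose and 1.65% fell. In 3c3, by contrast, 9 of 18 tested members rose from d4 to d6 and 0 fell, with a median of 0.54. There 1279 of 9871 tested genes rose and 1105 fell. The values that follow are those of Cl19. Tagln had 9.39, 9.19 and 9.35 on d0, 15.60, 15.79 and 15.95 on d4 and 15.93, 15.98 and 15.64 on d6 (0.07 ± 0.17, adjusted p = 0.837). Cnn1 had 11.23, 11.60 and 11.81 on d4 and 11.55, 11.14 and 11.48 on d6, and Myl9 had 15.47, 16.12 and 15.74 on d4 and 15.40, 15.19 and 15.68 on d6; the days overlapped for all 3. Desmin (Des), the muscle intermediate filament, had the largest positive value, 1.70 ± 0.42 (adjusted p = 0.0795), with 4.98, 6.74 and 6.65 on d4 and 7.11, 8.62 and 7.72 on d6. The exception was Synpo2, an actin-binding protein of the Z-disc, which fell from 5.64, 4.89 and 5.58 to 3.70, 2.60 and 2.75 (2.36, SE 0.21, adjusted p = 0.0191) after 3.53, 3.19 and 3.34 on d0. Fhl1, a LIM protein of muscle, fell by 2.06 (SE 0.25) on all 3 of its probes, from 11.40, 10.59 and 10.84 to 8.97, 8.23 and 9.43.

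The other factors that the study names did not pass the test or were not tested. Foxj1, the master factor of motile cilia, had 11.42, 13.18 and 12.86 on d4 and 13.99, 13.55 and 13.01 on d6 (1.03 ± 0.47, adjusted p = 0.25), after 4.79, 4.54 and 4.74 on d0. Lhx1 (0.50 ± 0.46), Cited4 (0.60 ± 0.33), Sox4 (0.32 ± 0.15), Eomes (-0.01 ± 0.31), Foxc2 (-0.02 ± 0.17) and Zeb1 (-0.26 ± 0.16) had smaller values. Foxc1 was not tested, since 1 d4 array and 0 d6 arrays cleared the background, after 8.66, 8.57 and 8.55 on d0. None of the 16 tested cilium genes passed the test, with 7 of them at an unadjusted p below 0.05; over all tested genes 13.7% were higher at that p. Of the 16, 15 were above 0 with a median of 0.94, where 5635 of all 11450 genes were above 0, and the pairs differed, with medians of 1.68, 0.43 and 0.25.

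Genes of cell division had lower values on d6 in 2 of the 3 pairs. None of the 42 tested members was called in limma, with 13 at an unadjusted p below 0.05, all lower, while 39 of the 42 were below 0 and the median was -0.72. Over all tested genes 12.8% were lower at that p and 50.8% were below 0. The median of the members was -0.89 in pair 1, -1.63 in pair 2 and 0.35 in pair 3. The proliferation marker Mki67 had 6.60, 7.44 and 6.36 on d4 and 4.29, 4.98 and 6.58 on d6, and Cdk1, the kinase of mitotic entry, 13.70, 14.02 and 13.58 on d4 and 12.37, 11.97 and 13.70 on d6. In both the d6 array of replicate 3 alone stood at the d4 level. In 3c3, whose arrays are separate, 29 of these 42 genes fell and 1 rose, where 1105 of 9871 tested genes fell. Cholesterol synthesis followed the same split, with medians of -0.49, -0.87 and 0.75 in the 3 pairs and 0 of 23 tested members called, 3 of them at an unadjusted p below 0.05.

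Of the 29 genes of glycolysis and hypoxia 26 were below 0, where 50.8% of all tested genes were. Their median was -0.41, and all 3 pairs had a negative median. Slc2a3, a high-affinity glucose transporter, fell from 10.44, 10.28 and 10.56 to 8.71, 8.97 and 9.24 (1.45, SE 0.21, adjusted p = 0.0344), after 8.34, 7.51 and 8.21 on d0. Bnip3, a mitophagy receptor induced by hypoxia, fell from 11.74, 11.24 and 11.31 to 9.91, 10.59 and 9.93 (adjusted p = 0.0472). These were the 2 members that passed, where 1.65% of all tested genes fell. Gapdh, by contrast, had 15.57, 15.88 and 15.71 on d4 and 15.47, 15.63 and 15.94 on d6. In 3c3, 18 members of this list fell and 0 rose, where 1105 of 9871 tested genes fell and 1279 rose.

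**Figure D5:**
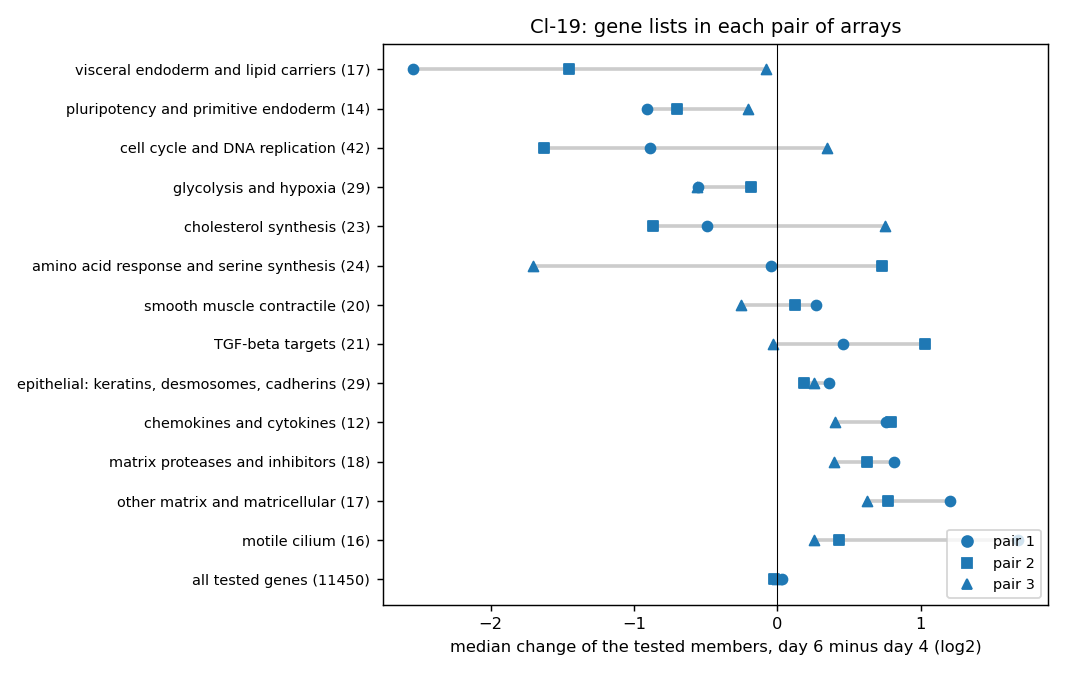
Median change from d4 to d6 (log2) of the tested members of 13 gene lists and of all tested genes in each of the 3 pairs of Cl19 arrays, with the number of tested members in brackets and grey bars joining the pairs. Pair 3 (triangles) lies apart for cell division (0.35 against -0.89 and -1.63), visceral endoderm (-0.08 against -2.54 and -1.45) and amino acid response (-1.71 against -0.04 and 0.73), whereas matrix proteases and chemokines are above 0 in all 3 pairs. Members could pass the filter through d6 alone, so medians above 0 can partly follow from the selection.

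Among markers of other cell types the endothelial list had 2 of 11 tested members lower and 0 higher, where 1.65% of all tested genes were lower. Vwf, the von Willebrand factor of endothelium and platelets, went from 7.93, 6.96 and 7.51 to 5.31, 5.25 and 5.72 (2.04, SE 0.21, adjusted p = 0.0219). Tie1 fell by 1.22 (SE 0.19) and was called on 1 of its 2 tested probes. The summed level of the 16 endothelial markers on the array ranged from 11.8 to 12.1 on d4 and from 11.7 to 12.5 on d6. For the whole culture, fewer cells of a type and less RNA per cell cannot be told apart. Of 18 vasoactive receptors and regulators, the endothelin receptor Ednrb rose by 2.87 ± 0.49, while the prostaglandin E receptor Ptger3 fell from 6.76, 4.39 and 5.45 to 1.36, 0.62 and 1.97 (adjusted p = 0.0255), with 1 d6 array well above background and so no fold given, and the prostacyclin synthase Ptgis fell by 1.39 (SE 0.23).

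The d4 and d6 arrays of 3c3 give a second reading of the late step. Of the 220 probes higher in Cl19 that could be tested in 3c3, 181 were above 0 there and 115 were called higher, where 11.2% of all probes tested in 3c3 were; 6 were called lower. Of the 265 lower probes 205 were below 0 and 125 were called lower, against 10.3% of all, and 17 were called higher. The difference of the step between the lines, tested itself, passed the threshold for 28 of 22742 probes (0.123%). Of these, 10 had the more positive change in Cl19 and 18 the more negative. Lect2 (4.97 in Cl19, 0.25 in 3c3), Kcnh6 (3.38 and 0.09), Nrep (2.97 and 0.01) and Il36rn (2.40 and 0.00), an antagonist of interleukin-36, had the more positive measured change in Cl19, while Kcnj5 (-2.81 and -0.03), Apoc3 (-2.40 and 0.35) and Mgll (-1.61 and 0.74), which breaks down monoglycerides, had the more negative one. Lect2, Nrep and Il36rn were well above background on no d4 array of Cl19, and these 3 and Kcnh6 on none of the d4 and d6 arrays of 3c3, so their values set signal against background and are not exact. Without replicate 3 of 3c3, whose d4 and d6 arrays had negative control signals of 44.5 and 35.0 against 11.3 to 13.5 on the 6 arrays of Cl19, 0 differences passed, and 0 passed without any 1 replicate number of both lines.

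Compared with primary SMCs, 225 of the 403 higher probes (55.8%) and 169 of the 315 lower probes (53.7%) were well above background on both primary arrays, against 71.7% of all tested probes. Of the named genes, Col5a2, Tnc, Jag1 (10.76) and Fzd1 (10.58) rose and were bright in primary cells, whereas Cxcl2, Calb2, Calcb and Krt6c were well above background on neither primary array. Of the falling genes, Cubn, Apoa4, Ihh and Cldn2 were well above background on neither primary array, but Fhl1 (15.20), Smarcd3 (14.63) and Tbx18 (10.21) were bright there.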

How the data were processed

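RNA of each culture was hybridized to 1-colour Agilent rat arrays of 4 per slide, and each Cl19 slide held the d0, d2, d4 and d6 arrays of 1 replicate. The authors deposited the scanner intensity of each feature, extracted with Agilent Feature Extraction 10.1.1.1, which subtracts the background, and a log2 table that equals the log2 of the processed signal (largest difference 5.2e-14). Feature Extraction's flags served for detection and outliers. Here log2 intensities of 43379 gene features were quantile-normalized over 26 arrays, which removes any shift common to all genes, outlier-flagged features were dropped and features of a probe averaged (41012 probes, of which 22533 had a symbol in the RefSeq table, 17309 symbols). Probes well above background on all 3 d4 or all 3 d6 arrays (22527) entered a linear model in limma 3.58.1 (R 4.3.3) on 9 arrays (d0, d4 and d6) with the slide as a block, and adjusted by the Benjamini-Hochberg method at 0.05. The number of arrays limits the precision. The study's supplement describes the arrays as biological replicates. The p-values and SEs measure the spread between the arrays of each fit only, which for the main fit include d0. The script was tested on simulated data.

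The replicate number stands for a shared slide, which is where the pairing comes from; deviations of d4 and d6 arrays with the same number correlated at 0.34, 0.30 and 0.02 across probes. A gene was measured by its brightest probe. Named genes were the 12 largest rises and falls bright on all 6 arrays, the 5 largest that appeared or disappeared, the 6 late genes and the 8 genes that fell again with the largest change, up to 4 members of each of 49 gene lists, and 10 genes the study names. Other genes named, such as list members that were called, were chosen after their values were seen. The members and lists were chosen with earlier results of these data known. Of the 49 lists, 40 were pathways and 9 were markers of other cell types. Among the latter, members higher and lower were 0 and 0 for haematopoietic, neural, adipocyte, chondrocyte or osteoblast and mesothelial lists, 1 and 1 for trophoblast and for cardiac or skeletal muscle, and 0 and 2 for endothelial and hepatocyte lists. The alternatives were no block, other arrays in the fit, other normalizations, background correction and filters, each replicate left out, an unpaired t-test and other thresholds. Some items are not reported here.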

Additional observations from a re-analysis of the deposited data

Results flagged for a closer look

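The change from d4 to d6 differed between Cl19 and 3c3 for 28 of 22742 probes in limma (adjusted p below 0.05; 3243 at an unadjusted p below 0.05), of which 24 had a gene symbol. Values are the change in Cl19 minus that in 3c3, in log2 units, over 3 pairs of arrays a line. The change was more positive in Cl19 for Rgs9 (4.73), Lect2 (4.72), Kcns1 (3.61), Kcnh6 (3.30), Nrep (2.96), Lgi4 (2.46), Mboat2 (2.43) and Il36rn (2.41). For Kcns1, Rgs9 and Mboat2 the difference lay mostly in a lower level on d6 in 3c3 (-3.59, -3.54 and -2.61). On d6 of 3c3 Kcns1 was well above background on 1 array and Rgs9 and Mboat2 on none, so these falls are not exact. Kcns1 and Rgs9 were too dim in Cl19 to be tested there, where the mean of Rgs9 went from 1.64 to 2.84. Lect2, Kcnh6, Nrep and Il36rn were well above background on none of the d4 and d6 arrays of 3c3, so these differences set signal against background.

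It was more negative in Cl19 for Doxl2 (-4.51), Reg4 (-4.21), Krt12 (-3.96), Tnfrsf17 (-3.67), both probes of Fgb (-3.47 and -3.31), Fbln2 (-3.21), Kcnj5 (-2.78), both probes of Apoc3 (-2.76 and -2.67), both probes of Sh3bp5 (-2.50 and -2.36), Hoxc11 (-2.43), Mgll (-2.35), Cdcp1 (-2.33) and Masp1 (-2.04). Of these, Kcnj5, both probes of Apoc3 and of Sh3bp5, Mgll, Tnfrsf17 and 1 of the 2 probes of Fgb also fell in Cl19 itself. For Fbln2, Hoxc11 and Cdcp1 the change in Cl19 was 0.58, -0.14 and 0.06, against 3.79, 2.30 and 2.39 in 3c3, where no d4 array was well above background for Fbln2. Reg4 was too dim in Cl19 to be tested there. Its difference lay in a rise of 4.13 in 3c3, where no d4 array was well above background. None of the 28 differences passed in limma without replicate 3 of 3c3, the slide with the higher negative control signal.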

How the results depend on the processing

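The number of calls depended strongly on the processing. All 718 called probes kept their sign under each alternative that tested them. For fits that changed only the arrays, the block or the filter this had to follow, since all 3 pairs of each probe had moved the same way. Counts are given as higher, lower, late and fell again, and were 403, 315, 90 and 83 as reported. Without the replicate block they were 436, 280, 100 and 69, with 530 of the 718 calls shared. With all 12 Cl19 arrays they were 647, 672, 183 and 106, with all 26 arrays and the block 1458, 1636, 474 and 252, and with all 26 arrays and no block 861, 883, 234 and 169. Scaling to the 75th percentile gave 245, 182, 62 and 46, normexp 86, 55, 43 and 20, and the authors' log2 values 244, 131, 42 and 38, which moved the higher share of calls from 56.1% to 65.1%. Requiring all 6 arrays above background gave 222, 215, 48 and 55, and every array of any group 244, 183, 61 and 48. With the 6 arrays alone limma called 0 higher and 0 lower (3809 probes at an unadjusted p below 0.05), and with no filter 0, 0, 0 and 0 (6365). An adjusted p below 0.01 left 0 and 0. An unpaired Student's t-test gave 1575 higher and 1017 lower unadjusted, and 0 and 0 after Benjamini-Hochberg. The study names this test in its general statistics. For its arrays it used the area between each time course and a constant profile, a method that was not run here. Leaving out 1 replicate gave 0 to 104 higher, 0 to 77 lower, 0 to 29 late and 0 to 22 that fell again; with limma, replicate 1 left out gave 0 calls, 2659 probes being at an unadjusted p below 0.05. With d2 in place of d4 late genes numbered 149 and those that fell again 69, and with the other sizes of the earlier change 156 and 103. The difference between the lines passed for 28 probes as reported, 24 without the replicate block, 31 by 75th percentile, 12 by normexp, 18 in the authors' table, 11 with every array of any group above background, 940 with all 26 arrays, and 0 to 0 with 1 replicate of both lines left out, as without 3c3 replicate 3. The Fbln2 difference turned from -3.21 to 0.0045 under normexp. Of the 83 named genes that were called, 72 were called without the block, 19 under normexp, 24 without replicate 3, 2 without replicate 2 and 0 without replicate 1. The cause of these shifts was not tested. Signal near background limits the size of some changes: 16 of the 90 late probes were well above background on no d4 array.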
